A study of Mus musculus with 4 samples.

Results

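Immature CD4-committed thymocytes are cells that have just been selected and have lost CD8 without yet becoming competent to leave the thymus. The cells gated as such made up 351 of the 31722 quality-filtered cells and of the 57354 cells of the series. They were chosen from raw transcript counts in each cell, where a unique molecular identifier (UMI) stands for 1 captured transcript. A cell had to have at least 200 genes, at least 1500 UMIs and at most 10% mitochondrial UMIs. It had to hold no UMI of Cd8a or Cd8b1, at least 2 of Cd4, Zbtb7b, Cd40lg and Gata3 in sum, and at least 2 of Itm2a and Cd69. It also had to lack S1pr1 and Klf2 (egress), Foxp3 (regulatory T cells), Nkg7 (cytotoxic cells) and Trdc (γδ T cells), and to hold fewer than 4 UMIs of the strong T cell receptor signal genes Tnfrsf9, Nr4a1, Nr4a3, Xcl1, Tnfrsf4 and Nfkbid. These 19 genes fixed the membership, so their levels are description. They were left in the fits, but no test result is drawn from them.

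Thymocyte suspensions were profiled by droplet sequencing of transcript 3′ ends in 2 control mice with floxed Tox4 alleles (Tox4 F/F) and 2 conditional knockout mice (cKO) with the same alleles and Lck-Cre. The mice were gender-matched littermates of 6 to 8 weeks, and the floxed line was made on a C57BL/6 background. The proximal Lck promoter drives the Cre recombinase from the DN3 stage on, before the stages described here. Tox4 encodes a nuclear DNA-binding protein of the protein phosphatase 1 complex that acts on RNA polymerase II, and the comparison asks what its loss changes in these cells.

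In the thymus, double-positive (DP) cells carrying both CD4 and CD8 test their T cell receptor against self-peptide on major histocompatibility complex (MHC) molecules. Cells selected on MHC class II keep signalling, raise Gata3 and then Zbtb7b (ThPOK, the CD4-lineage factor) and silence the CD8 genes. They then move from cortex to medulla as Ccr9 gives way to Ccr4 and Ccr7, and finally gain Klf2 and S1pr1, which bring them to the blood. Cells of the mature end of this path (the same rule, but at least 2 UMIs of S1pr1 and Klf2 and no condition on Itm2a and Cd69; 363 cells) and of its start (selected DP: at least 2 UMIs of Cd8a and Cd8b1, at least 1 of Cd4, otherwise as the rule; 966 cells) were gated for comparison.

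The libraries held 11790 to 17347 cells and 42716798 to 62007453 UMIs. The share of cells above the mitochondrial limit was 48.3% in control 1 and 46.1% in cKO 1 but 20.6% in control 2 and 23.1% in cKO 2, so the libraries numbered 1 stood apart from those numbered 2 in both genotypes. Pairs of libraries shared 36 to 70 cell barcodes, at most 0.555% of the smaller library. Summed over the gated cells, the depth was 199636 UMIs in control 1, 528804 in control 2, 324102 in cKO 1 and 530482 in cKO 2, and the median gated cell held 5236.5, 4583, 5296 and 3351 UMIs in the same order.

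The gated cells numbered 36 in control 1, or 0.648% of its quality-filtered cells (95% exact binomial interval 0.454 to 0.896%). Control 2 held 108 (1.27%, 1.05 to 1.54%), cKO 1 held 61 (0.952%, 0.729 to 1.22%) and cKO 2 held 146 (1.29%, 1.09 to 1.52%). The intervals cover counting error only. The means were 0.961% ± 0.443 in control and 1.12% ± 0.242 in cKO (SD, n = 2 each), with cKO 1 between the 2 control libraries. When every cell was first thinned at random to 1500 UMIs and the rule applied to the thinned counts, the shares were 0.918% and 0.802% in control and 0.734% and 0.780% in cKO, so the order of the genotypes turned. The rule asks for the absence of some UMIs and a minimum of others, and thinning lowered the share in 3 libraries and raised it in control 1. With at most 5% mitochondrial UMIs the shares were 0.496% and 0.818% in control (8 and 11 cells) and 1.04% and 1.10% in cKO (30 and 32 cells), so the groups did not overlap. No test of the share was made.

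**Figure D1:**
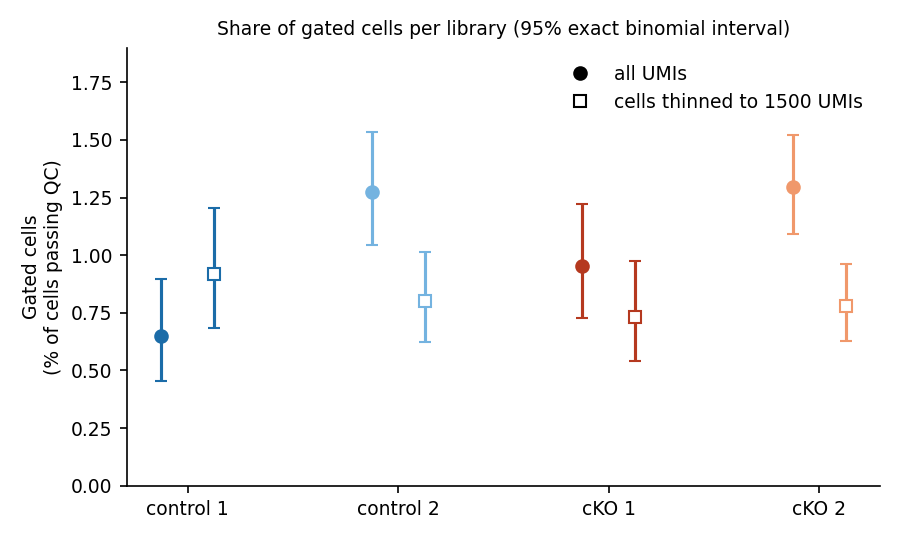
Gated cells as a percentage of the quality-filtered cells of each library, from all UMIs (filled circles) and after thinning every cell to 1500 UMIs (open squares), with 95% exact binomial intervals. At full depth the libraries range from 0.648 to 1.29%, and after thinning from 0.734 to 0.918% with cKO below control.

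Members entered the gate mainly through Cd4 and Gata3. Of the 351 cells, 260 (74.1%) had a Cd4 UMI, 226 (64.4%) Gata3, 131 (37.3%) Cd40lg, which encodes CD40 ligand, and 110 (31.3%) Zbtb7b. At least 1 of Zbtb7b and Cd40lg was found in 199 cells (56.7%), and 38 cells (10.8%) met the condition by Cd4 alone. Itm2a, a membrane protein gene induced by selection, was found in 344 cells (98.0%) and Cd69, the early activation marker that holds cells in the thymus, in 164 (46.7%). At the edge of the rule, 105 members had exactly 2 UMIs of the CD4 group and 28 exactly 2 of Itm2a and Cd69. Just outside it, 285 cells failed only because they held 1 UMI of Cd8a or Cd8b1, 117 because they held 1 UMI of the CD4 group, 50 because they held 1 of S1pr1 and Klf2, and 37 because they held 1 of Itm2a and Cd69. A transcript can be present without being captured, so a member with no CD8 UMI may still have held CD8 RNA.

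Genes outside the rule placed the gated cells between both other gates. Levels are UMIs summed per library and gate and given as CPM, the usual unit in which a gene's UMIs are scaled to the total of that sum, and they are described without a test because the gates were set on the same cells. Rag1, which encodes the recombinase that rearranges receptor genes, stood at 90.2 and 71.9 CPM in control and 67.9 and 62.2 CPM in cKO, against 561 to 682 CPM in selected DP cells. Its mean level was 8.43 times lower in the gated cells than in selected DP cells, and it overlapped that of mature CD4 cells (42.6 to 92.8 CPM). Of 14 genes of the DP program, 13 were lower than in selected DP cells in all 4 libraries, against 22.5% of the 8226 genes tested between these gates outside the rule (10.9% were higher in all 4). They include Dntt, the terminal transferase of receptor gene assembly (mean 113 against 624 CPM), and Arpp21 (mean 67.7 against 557 CPM).

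At the other end, the marks of late maturation were still low. Ms4a4b, a membrane protein gene of mature T cells, was 80.1 and 51.1 CPM in control and 74.1 and 66.0 CPM in cKO, while mature CD4 cells held 863 to 1176 CPM. H2-K1, an MHC class I heavy chain, was 7.04 times lower than in mature cells, and B2m, its light chain, 2.78 times lower. Of the 20 late maturation genes tested between these gates, 14 were lower than in mature cells in all 4 libraries. Among the 6689 genes tested there outside the rule, 11.7% were lower and 26.0% higher in all 4. Of the 17 genes of this list tested against selected DP cells, 11 were higher in all 4, against the 10.9% given above. The 2 that exceeded mature cells in every library were Il7r, the interleukin-7 receptor chain (mean 432 against 241 CPM), and Tmsb10, a small actin-binding protein (mean 10014 against 8025 CPM). Of 20 interferon-stimulated genes present in the files, 17 were lower than in mature cells in every library and 5 were higher than in selected DP cells.

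Some genes were higher in the gated cells than in both neighbours. Lef1, a high-mobility-group factor that works with Tcf7 in CD4 lineage choice, stood at 1157 and 1125 CPM in control and 1373 and 1284 CPM in cKO, against at most 689 CPM in mature and 820 CPM in selected DP cells. Bcl2, the survival factor, had a mean of 750 CPM, 2.19 times its mean in mature and 2.51 times that in selected DP cells. Id2, an inhibitor of E proteins, was 3.59 and 2.49 times higher, and Tox, a factor required for CD4 lineage development, was 3.54 and 1.46 times higher. These 4 genes were above both gates in all 4 libraries. Tcf7 was instead ordered along the path, with means of 1106, 690 and 486 CPM in selected DP, gated and mature cells, and so was Myb with 365, 92.7 and 46.2 CPM. Satb1, a chromatin organizer, remained near its level in selected DP cells (mean 3590 against 3206 CPM) and was 2.97 times higher than in mature cells.

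Some genes that respond to receptor signals were also higher. Of 20 such genes outside the rule, 17 were tested against mature and 18 against selected DP cells. In each comparison 9 were higher in the gated cells in all 4 libraries, against 26.0% and 10.9% of all genes tested. Egr1, an immediate transcription factor of the receptor, had a mean of 183 CPM against 52.8 CPM in mature cells, and Nab2, its co-repressor, 136 against 46.7 CPM. Cd5, a surface protein whose level follows signal strength, had means of 541, 357 and 340 CPM in gated, mature and selected DP cells. The costimulatory receptor Cd28 was 2.44 times higher than in mature cells and 1.30 times higher than in selected DP cells. Of 22 proliferation genes, 20 were lower than in selected DP cells in all 4 libraries, against 22.5% of all genes tested.

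**Figure D2:**
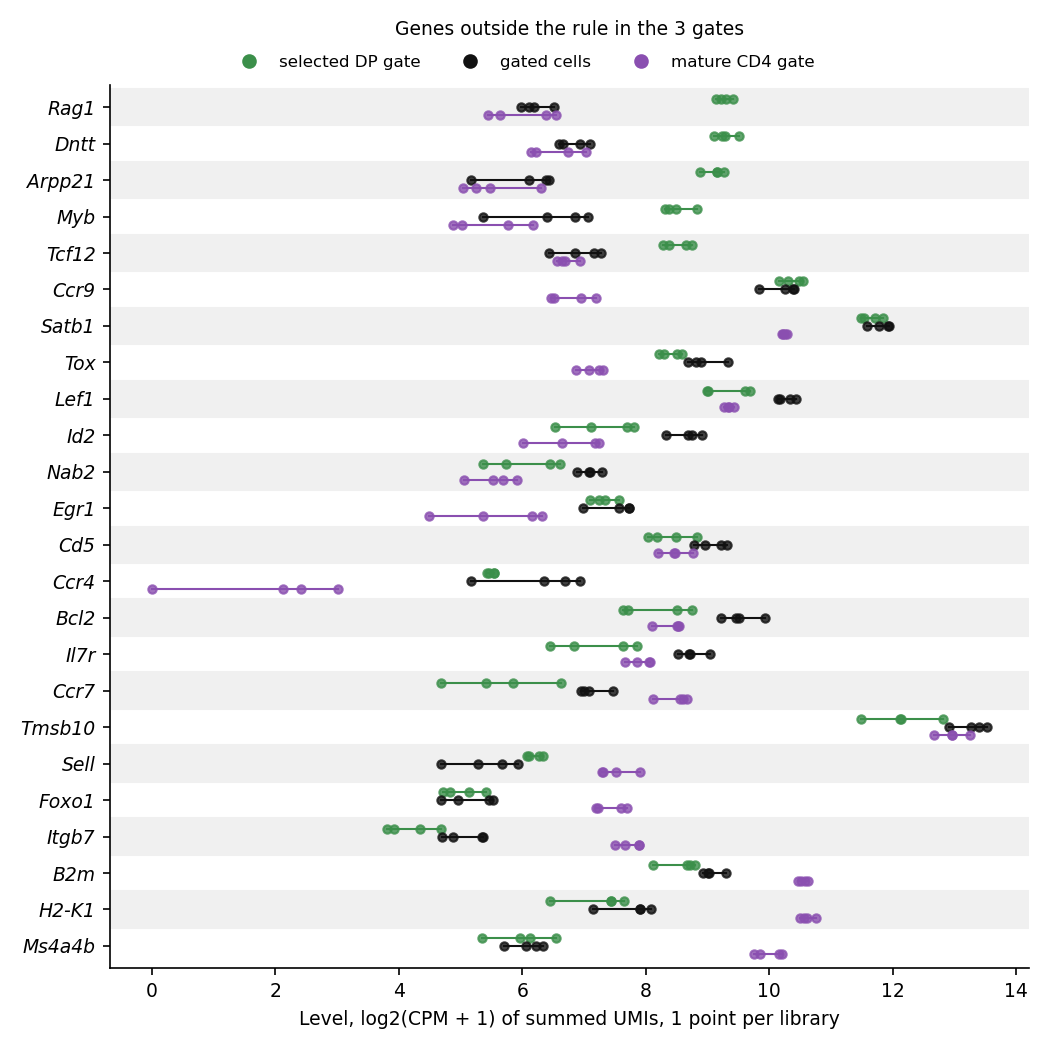
Levels of 24 genes outside the rule in selected DP cells (green), gated cells (black) and mature CD4 cells (purple), as log2(CPM + 1) of UMIs summed per library, with 1 point per library. DP genes such as Rag1 and Dntt lie with mature cells, Ms4a4b and Foxo1 overlap selected DP cells, H2-K1 and Itgb7 lie above selected DP cells in each library and far below mature cells, and Lef1, Id2, Bcl2 and Il7r lie above both.

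Markers of other cell types were low or absent in the gated cells for most lists, but not for the regulatory and agonist-selected one. Zbtb16 and Klrb1c (innate-like T), Tigit (regulatory T), Ms4a1 (B) and Alas2 (erythroid) had no UMI in any library. The 8 CD8-lineage markers summed to 80.1 to 133 CPM, the 8 innate-like markers to 30.1 to 51.1 CPM, the 7 B cell markers to 75.6 to 117 CPM, the 9 mononuclear phagocyte markers to 135 to 236 CPM, the 6 thymic epithelial markers to 12.3 to 26.5 CPM and the 5 neutrophil markers to 1.89 to 12.3 CPM. The 5 erythroid markers summed to 22.7 to 35.8 CPM in 3 libraries and to 747 CPM in cKO 1. The 8 regulatory and agonist-selected markers, with Izumo1r and Ikzf2 the highest, summed to 601 and 643 CPM in control and 978 and 895 CPM in cKO. Mature CD4 cells held 292 and 473 CPM in control and 628 and 610 CPM in cKO. Selected DP cells held 507 and 450 CPM in control and 557 and 585 CPM in cKO. The gated cells were thus above both gates in every library, and in those gates too both cKO libraries were above both controls. Single markers did not all follow the sum: 3 of the 8 were higher than in selected DP cells in all 4 libraries (10.9% of all genes tested), among them Izumo1r (mean 416 against 131 CPM), while Ikzf2 was lower in all 4 (mean 168 against 285 CPM). Of the members, 1 was among the 5% of cells with the highest doublet score of its library, against 4 of 363 mature and 134 of 966 selected DP cells.

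The gated cells differed in the chemokine receptor transcripts they held. To compare cells at equal depth, each was thinned to 1500 UMIs. Ccr9, the receptor of cortical thymocytes, was then found in 266 of 351 gated cells (75.8%; 63.9 to 80.8% over libraries), close to the 81.4% of selected DP cells and far from the 12.1% of mature cells. Before thinning, the share with Ccr9 was 88.5 to 94.4%. Ccr7, the receptor that leads cells into the medulla, was found in 47 cells (13.4%; 13.0 to 13.9%), between selected DP cells (7.45%) and mature cells (41.6%), and before thinning in 29.5 to 38.9%. Ccr4, which is raised soon after selection, was found in 52 cells (14.8%) against 5.59% of selected DP and 0.826% of mature cells. Its share by library was 2.78% and 20.4% in control and 16.4% and 13.0% in cKO, and before thinning 16.7%, 37.0%, 26.2% and 24.7%. As a background, in 29 B cells (median depth per library 4166 to 10445 UMIs) thinned alike, Ccr9 was found in 1 cell and Ccr4 and Ccr7 in 0, which allows a share of up to 10.3%. B cells can express Ccr7 and Ccr9 themselves, and before thinning some did in these libraries, so they are a strict background only for Ccr4.

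Ccr4 and Ccr7 were found together in 0 of 351 thinned cells, which allows a share of up to 0.855% at that depth. With all UMIs, 79 cells had Ccr4 alone, 97 Ccr7 alone and 19 both. The Ccr4 cells mostly kept Ccr9 (47 of 52), and of the 47 Ccr7 cells 25 had Ccr9. Rag1 was found in 37 thinned cells, 1 of them with Ccr7.

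The cells with Ccr4 and the cells with Ccr7 also differed in genes that neither the rule nor this split used. These are pooled levels of 52 and 47 cells from 4 libraries with no test, and control 1 gave 1 Ccr4 cell. Id3, an E protein inhibitor raised by receptor signals, stood at 846 CPM in Ccr4 cells, 257 CPM in Ccr7 cells and 407 CPM in cells with neither. Cd5 stood at 846, 432 and 514 CPM in the same order, and the costimulatory receptor Cd27 at 754, 284 and 541 CPM. Ikzf2, the Helios factor of strongly signalled and regulatory T cells, was 304 CPM in Ccr4 cells from 60 UMIs and 8.72 CPM in Ccr7 cells from 2 UMIs. In the other direction, Il7r was 359 CPM in Ccr4 and 615 CPM in Ccr7 cells, H2-K1 was 122 and 262 CPM and B2m 410 and 702 CPM. Id3, Cd5, Cd27 and Ccr9 were higher in the Ccr4 cells, and B2m, H2-K1 and Il7r higher in the Ccr7 cells, in each of the 4 libraries. In control 1 this order rests on 1 Ccr4 cell and 5 Ccr7 cells. The share of all genes ordered alike in every library is not given here, so this agreement has no background to be read against.

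**Figure D3:**
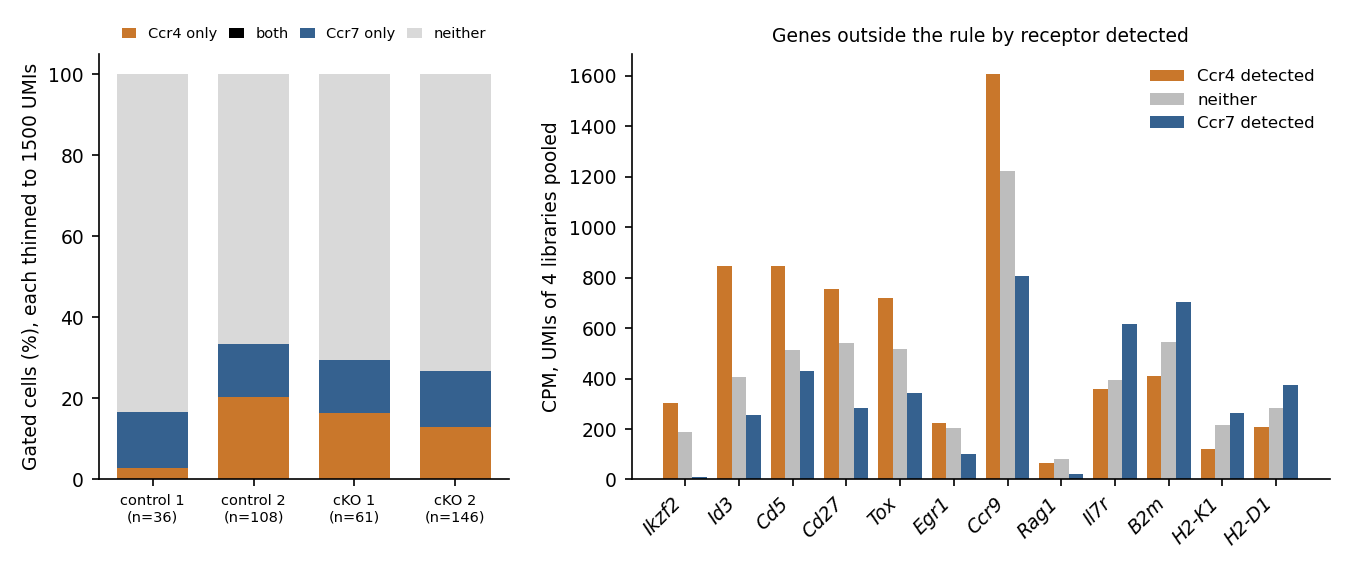
Left, the percentage of gated cells of each library with a UMI of Ccr4 only, Ccr7 only, both or neither after thinning to 1500 UMIs. Right, CPM of 12 genes in cells with Ccr4, neither or Ccr7, from the UMIs of 4 libraries pooled: Id3 falls from 846 to 257 CPM between Ccr4 and Ccr7 cells, and Il7r rises from 359 to 615 CPM.

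Between the genotypes, 4 of 5679 genes tested passed (0.0704%), all 4 higher in cKO and 0 lower: Lef1os1, Chd3, Myo6 and Hbb-bs. The 4 sums were compared with edgeR's quasi-likelihood test with Benjamini-Hochberg adjustment over all genes. An unadjusted p under 0.05 was reached by 248 genes (4.37%), and DESeq2 called 0 genes with 27 under that limit. In 2 of the 4 called genes most UMIs of a library came from a single cell, as given with each gene. In sums over cells, fewer expressing cells and less RNA per cell cannot be told apart.

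No lower level of the targeted gene was detected in cKO. Tox4 (chr14:52279146-52296401) stood at 70.1 and 45.4 CPM in control and 55.5 and 67.9 CPM in cKO, with a log2 fold change of 0.23 ± 0.35 (SE, n = 2 each; edgeR adjusted p = 0.998). The groups overlapped. The floxed exons lie inside the gene, while the library reads the 3′ end of the transcript, so this count does not check the deletion.

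Lef1os1 is a noncoding transcript on the minus strand at the start of Lef1 (GRCm38 chr3:131109026-131112090, annotated as antisense). It shares 1620 bases with the first part of Lef1 (chr3:131110471-131224356, plus strand), and its own 3′ end lies 1445 bases before Lef1 starts. Its level was 95.2 and 130 CPM in control and 278 and 334 CPM in cKO, so both cKO libraries lay above both control libraries. The log2 fold change was 1.37 ± 0.22 (edgeR adjusted p = 2.32e-05). The 19 and 69 control UMIs came from 9 and 35 cells and the 90 and 177 cKO UMIs from 31 and 62 cells, with at most 14 in any cell. At 1500 UMIs per cell, 19.4% and 13.9% of control and 32.8% and 26.0% of cKO gated cells had a UMI (before thinning 25%, 32.4%, 50.8% and 42.5%), and 0 of 29 B cells. Leaving out each gene's highest cell in every library kept the call (log2 fold change 1.44, adjusted p = 0.0014). The call was lost with DESeq2 (adjusted p = 0.195), after thinning (0.617), with equal cell numbers per library (0.0601) and with at most 5% mitochondrial UMIs (0.929), with log2 fold changes of 1.35 to 1.76. The sources used here do not state how the counting treated strand, so reads of Lef1os1 and Lef1 may not be fully told apart.

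Lef1 itself did not pass the test. It stood at 1157 and 1125 CPM in control and at 1373 and 1284 CPM in cKO. Its log2 fold change was 0.22 ± 0.15 (edgeR adjusted p = 0.998), although the groups did not overlap. Of all genes tested, 16.1% had both cKO libraries above both controls and 16.7% had them below.

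Chd3 encodes an ATP-dependent remodeller of the NuRD complex (chr11:69343273-69369406). It stood at 265 and 253 CPM in control and 568 and 443 CPM in cKO, with a log2 fold change of 0.95 ± 0.18 (edgeR adjusted p = 0.00211). The groups did not overlap. Its UMIs were spread over 18 and 69 control and 52 and 101 cKO cells, with at most 11 in any cell, and at 1500 UMIs it was found in 36.1% and 28.7% of control and 52.5% and 47.3% of cKO gated cells. Before thinning, these shares were 50%, 63.9%, 85.2% and 69.2%, and 2 of 29 thinned B cells had a UMI. The call was lost without control 1 (adjusted p = 0.0519), without control 2 (0.194) and without cKO 1 (0.179), with log2 fold changes of 0.76 to 1.16 over the 4 omissions. It was also lost with DESeq2 (adjusted p = 0.773), with a CD4 sum of at least 3 (0.345), with equal cell numbers (0.328), with at most 5% mitochondrial UMIs (0.929) and after thinning (0.955), where the log2 fold change was 0.38.

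The other 2 calls rested on cKO 1. Myo6, an actin motor, stood at 5.01 and 9.46 CPM in control and 225 and 30.2 CPM in cKO, with a log2 fold change of 3.76 ± 0.58 (edgeR adjusted p = 2.32e-05). Of its 73 UMIs in cKO 1, 53 were in 1 cell, and the single-digit UMI totals of control (1 and 5) were in 1 cell each. Without cKO 1 its log2 fold change was 1.83 (adjusted p = 0.935). Hbb-bs, the adult β-globin, stood at 10.0 and 17.0 CPM in control and 293 and 24.5 CPM in cKO (log2 fold change 3.23 ± 0.53, edgeR adjusted p = 5.65e-05). In cKO 1, 92 of its 95 UMIs were in 1 cell, and the same library held 96 of 99 Hba-a1 and 45 of 48 Hba-a2 UMIs in its highest cell. Without cKO 1 the change was 0.68 (adjusted p = 0.983).

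**Figure D4:**
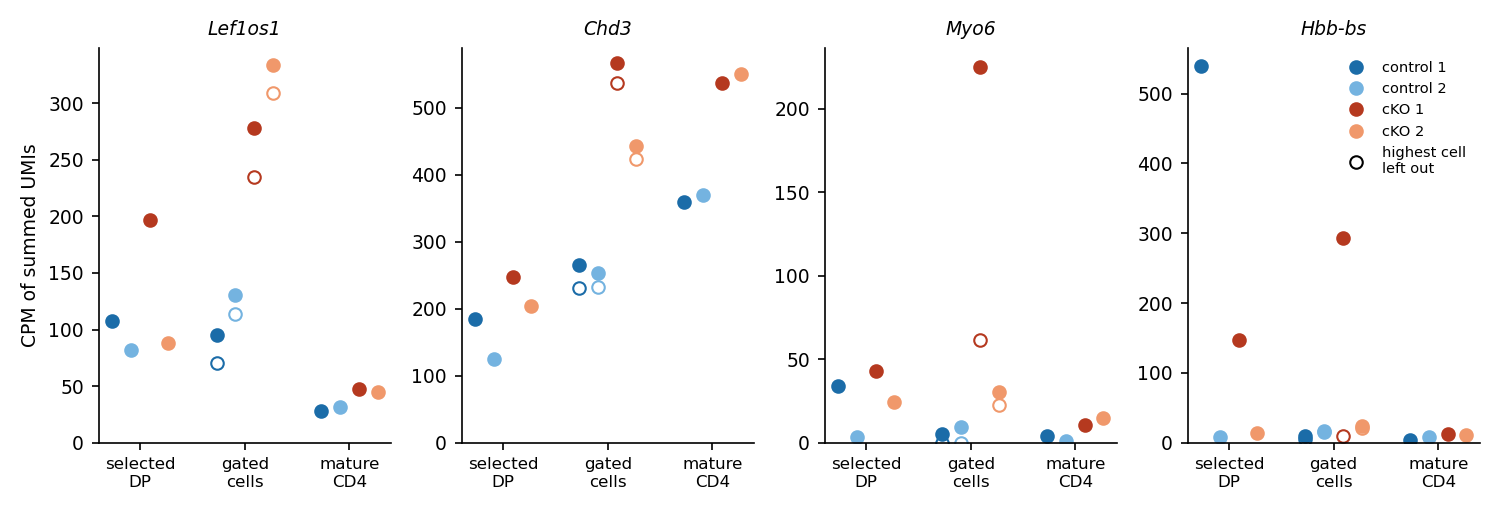
CPM of the 4 called genes in selected DP, gated and mature CD4 cells, with filled circles for each library and open circles for the gated cells with the highest cell of the gene left out. Lef1os1 and Chd3 keep both cKO libraries above both controls without that cell, while Myo6 in cKO 1 drops from 225 CPM and Hbb-bs in cKO 1 from 293 CPM.

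**Figure D5:**
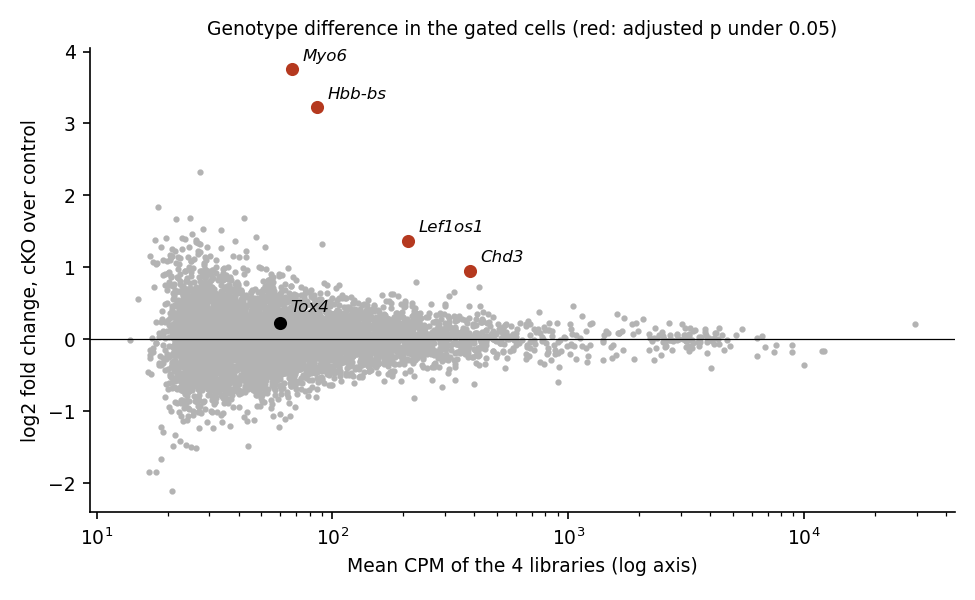
Genotype difference in the gated cells for the 5679 genes tested, as log2 fold change of cKO over control against mean CPM on a log axis. The 4 called genes (red) lie above 0, and Tox4 (black) lies at 0.23.

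No gene of the pathway lists passed in either direction with all 4 libraries and the rule as given. Some passed in alternatives: Junb without control 1, Ifi27l2a without control 2, Tmsb10 without cKO 1, and Trbc2, Junb and Ifi27l2a without cKO 2 were lower in cKO, while Hmgb2, Top2a and Gzma were higher when 1 CD8 UMI was allowed. Over all genes tested the median log2 fold change was -0.0020, and the list medians lay between -0.46 and 0.51. Over the alternative settings, a list median moved beyond its spread over pairs of control and cKO libraries in 32 cases and stayed within it in 206. The 15 lineage transcription factors, all tested, had a median of -0.0017. The 25 receptor and proximal signalling genes had a median of -0.05. Trbc2, a receptor β chain constant gene, was the lowest in p of these, with 4328 and 4794 CPM in control and 3126 and 3789 CPM in cKO (log2 fold change -0.40 ± 0.15, edgeR adjusted p = 0.980). Its reads may be shared with the near-identical Trbc1.

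Genes of the signal response, with 17 of 20 tested, had a median of 0.04. Egr2 had 25 and 26.5 CPM in control and 33.9 and 75.4 CPM in cKO (1.14 ± 0.42, edgeR adjusted p = 0.980). Homing and egress genes (13 of 18 tested) had a median of 0.0037, with Ccr9 at 1342 and 1329 CPM in control and 907 and 1223 CPM in cKO (-0.32 ± 0.15, edgeR adjusted p = 0.998). For late maturation (16 of 21 tested) the median was -0.05, and for the DP program (9 of 14) -0.18. Tmsb10 had 11771 and 10719 CPM in control and 9843 and 7723 CPM in cKO, which did not pass.

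Cytokine receptor and JAK-STAT genes (16 of 22) had a median of 0.13. Survival and death genes (11 of 14) had a median of -0.07, with Bcl2 at 591 and 700 CPM in control and 978 and 731 CPM in cKO (0.37 ± 0.16, edgeR adjusted p = 0.998). The p53 targets (9 of 20) had a median of 0.01, and the elongation and Tox4 complex genes (15 of 15) one of -0.01. In the last list 6 of 15 genes had both cKO libraries below both controls, against 16.7% of all genes, and 2 had them above. Supt4a, a subunit of the elongation factor DSIF, had 351 and 367 CPM in control and 253 and 270 CPM in cKO (-0.46 ± 0.19, edgeR adjusted p = 0.998).

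The immediate-early and heat shock genes (7 of 12 tested) had a median of -0.46 and the proliferation genes (12 of 22) one of 0.34. Jund, a subunit of the AP-1 factor, had 456 and 505 CPM in control and 290 and 336 CPM in cKO (-0.63 ± 0.18, edgeR adjusted p = 0.255). Junb, another subunit, had 165 and 535 CPM in control and 95.6 and 368 CPM in cKO, so the groups overlapped and the libraries numbered 1 were the lower of each genotype. Of the proliferation genes, the list behind the study's proliferation score, 5 of 12 had both cKO libraries above both controls against 16.1% of all genes. Dek, a chromatin protein of dividing cells, had 105 and 125 CPM in control and 157 and 172 CPM in cKO (0.48 ± 0.23, edgeR adjusted p = 0.998).

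Interferon-stimulated genes (12 of 21 tested) had a median of 0.24, and 5 of the 12 had both cKO libraries above both controls and 2 below, against 16.1% and 16.7% of all genes. Ifi27l2a had 376 and 210 CPM in control and 117 and 183 CPM in cKO (-0.82 ± 0.22, edgeR adjusted p = 0.183). Of 19 genes that had been called in other thymocyte classes of these libraries, 5 were tested with a median of 0.51 and 0 passed, with 1 at an unadjusted p under 0.05. These 19 genes were chosen on these libraries and are not independent evidence of a direction.

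Izumo1r, the folate receptor of regulatory T cells, was chosen after its values were seen. It stood at 331 and 297 CPM in control and 562 and 477 CPM in cKO (0.73 ± 0.18, edgeR adjusted p = 0.0732) and was the highest of the agonist-selected markers summed above. Its log2 fold change was 0.75 ± 0.21 in mature cells (edgeR adjusted p = 0.589) and 0.26 ± 0.30 in selected DP cells (0.887). The differences of the gated cells from these, 0.03 ± 0.24 and 0.34 ± 0.23, did not pass (edgeR adjusted p = 0.999 and 0.996). Foxp3 is absent by the rule. Whether these markers bear on the genotype values was not tested.

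The genotype values were set beside those of both neighbouring gates, whose sums come from the same 4 libraries. Within the mature gate alone 1 of 6169 genes was called (0.0162%, lower; 5.25% at an unadjusted p under 0.05), and within the selected DP gate 2 of 8764 (0.0228%, both higher; 7.13%). For Chd3, mature cells held 359 and 370 CPM in control and 537 and 550 CPM in cKO, and selected DP cells 185 and 126 CPM in control and 248 and 204 CPM in cKO. Both cKO libraries were above both controls in each gate, with log2 fold changes of 0.55 ± 0.16 in mature cells (edgeR adjusted p = 0.672) and 0.56 ± 0.19 in selected DP cells (0.520). In the interaction fits, which model both gates together, the change in the gated cells was larger by 0.40 ± 0.21 and 0.31 ± 0.20, and neither difference passed (edgeR adjusted p = 0.999 and 0.996). Lef1os1 was 0.56 ± 0.36 in mature and 0.60 ± 0.30 in selected DP cells, and its differences of 0.79 ± 0.41 and 0.81 ± 0.33 did not pass either (edgeR adjusted p = 0.999 and 0.996). With the replicate number as a term in the fit, the Lef1os1 difference from selected DP cells was called. That the differences above missed the threshold does not show that the gates respond alike.

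The genotype effect differed between gated and mature cells in 2 of 6700 genes (0.0299%; 3.84% at an unadjusted p under 0.05), and between gated and selected DP cells in 4 of 8237 (0.0486%; 4.15%). Nrgn, the calmodulin-binding protein neurogranin, was in both sets. In the gated cells it stood at 45.1 and 52.9 CPM in control and 164 and 99.9 CPM in cKO, in mature cells at 107 and 75.7 against 43.1 and 65.4 CPM, and in selected DP cells at 98.3 and 45.5 against 18.3 and 35.7 CPM. The difference of its log2 fold changes was 1.94 ± 0.40 against mature cells (edgeR adjusted p = 0.00457) and 2.43 ± 0.44 against selected DP cells (0.0167). Its UMIs in gated cells came from 4 and 6 control and 10 and 11 cKO cells. The highest cell held 4 of 9 and 19 of 28 UMIs in control and 15 of 53 and 23 of 53 in cKO. The change within the gated cells alone was 1.33 ± 0.31 and did not pass (edgeR adjusted p = 0.0654). It passed in edgeR with DESeq2 size factors and with 1 CD8 UMI allowed. The call against mature cells was lost without control 1 (edgeR adjusted p = 0.168), without control 2 (0.212) and without cKO 1 (1). Both calls were lost with doublets removed, where the differences were 1.38 and 1.7 (edgeR adjusted p = 1 and 0.995). Neither was made with extreme UMI totals removed, with at most 5% mitochondrial UMIs or after thinning. Against mature cells Nrgn was also not called with a CD4 sum of at least 3 or with each gene's highest cell left out.

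The remaining interaction calls moved with few libraries. Apoe, an apolipoprotein of macrophages, differed from mature cells by 1.66 ± 0.33 (edgeR adjusted p = 0.00381). It was 60.1 to 86.7 CPM in the gated cells. In mature cells it was 31.6 and 1037 CPM in control and 51.8 and 371 CPM in cKO, so both libraries numbered 2 were high. The 9 phagocyte markers in mature cells moved the same way, with 114 and 1352 CPM in control and 168 and 711 CPM in cKO, and their part in the result was not tested. Without control 2 the Apoe difference was -2.53, and without cKO 1 it was 1.12. With the replicate number as a term in the fit, Apoe was not called. The haemoglobin genes Hba-a1, Hba-a2 and Hbb-bs differed from selected DP cells, where control 1 held 235, 171 and 539 CPM and 2 of its cells had at least 10 haemoglobin UMIs. Hba-a1 and Hba-a2 are near-identical copies, so their split is uncertain. With cells of at least 10 haemoglobin UMIs left out (1 gated cell, 3 selected DP cells), 1 of the 4 calls, Nrgn, remained.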

How the data were processed

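Thymocytes of 2 control and 2 cKO mice were captured with the Chromium Single Cell 3′ kit. The deposited values are unnormalized UMI counts, which the authors made with Cell Ranger 6.1.1 on mm10 (GRCm38) with its default settings, 1 matrix per library. Groups and replicate numbers came from the labels. The members and gene lists were chosen with earlier results of these data known.

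Cells were filtered and gated as given in the report. Doublets were scored with Scrublet (scanpy 1.11.5, expected rate 8%) and removed only in an alternative. UMIs of each gate were summed per library, genes were kept by filterByExpr, and sums were tested with edgeR 4.0.16 (R 4.3.3; quasi-likelihood, TMM, genotype as the single term; Benjamini-Hochberg, threshold 0.05). Differences between gates were tested as an interaction with library as a term. DESeq2 1.42.0 was an alternative. SE was taken from the fold change and its F statistic. The code was tested on simulated data. Each mouse gave 1 library, so p-values rest on n = 2 per genotype. Named genes were Tox4, called genes with non-overlapping libraries, per list the 3 with the highest CPM or the 1 with the lowest p, up to 5 called per interaction, and, for levels between gates, genes of 5 lists; others, such as Bcl2, Cd28, Cd27, Ikzf2, Lef1os1's partner Lef1 and Izumo1r, were chosen after values were seen where outside this rule. Gene positions are from GENCODE M21, in which Lef1os1 has another symbol and was matched by gene ID. Mx1, on the interferon list, was not analysed here.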

Additional observations from a re-analysis of the deposited data

Results flagged for a closer look

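The genotype effect differed between gates in 6 results, each by the interaction test. Nrgn differed between gated and mature CD4 cells by 1.94 and between gated and selected DP cells by 2.43 on the log2 scale, with both cKO libraries above both controls in the gated cells, below both in the other gates. Apoe differed from mature CD4 cells by 1.66, with 1037 and 371 CPM in the mature libraries numbered 2 and 31.6 and 51.8 CPM in those numbered 1. The Nrgn call against mature cells was lost when control 1, control 2 or cKO 1 was left out. Neither Nrgn call was made with doublets or extreme UMI totals removed, with at most 5% mitochondrial UMIs or after thinning. Hba-a1 differed from selected DP cells by 7.84, Hba-a2 by 7.21 and Hbb-bs by 4.24, with 1 gated cell of cKO 1 and 2 selected DP cells of control 1 holding at least 10 haemoglobin UMIs.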

How the results depend on the processing

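Called genes numbered 4; other settings gave 0 with DESeq2, 7 with no filter, 14 with up to 1 CD8 UMI allowed, 1 with a CD4 sum of at least 3, 0 with at most 5% mitochondrial UMIs (1506 genes tested), 0 after thinning (1651 tested), 0 with 36 cells per library (3193 tested) and, chosen after seeing the data, 2 with each gene's highest cell left out. DESeq2 size factors gave 6. Leaving out 1 library gave 6 to 12 calls, 12 without cKO 2; an arm then held 1 library, assumed to vary like the other arm. Interactions with mature cells numbered 2 (Apoe and Nrgn), and the number moved when a library was omitted. Apoe alone was called with at most 5% mitochondrial UMIs, extreme totals removed, doublets removed or the highest cell left out. After thinning neither was called, and 1 other gene, Mat2a, was. With up to 1 CD8 UMI allowed, 3 interactions were called (H2-Eb1, Lyz2 and Nrgn). Those with selected DP cells numbered 4, then 0 with at most 5% mitochondrial UMIs or thinning, 1 with the highest cell or haemoglobin-rich cells left out, and 1 to 25 over omitted libraries, 25 without cKO 1. The cause of these shifts was not tested beyond the fewer genes tested.

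Replicate numbers were shared between the genotypes, and the paper speaks of pairs of control and cKO mice, but no label ties a number to a pair. Same-numbered libraries deviated together only weakly (r = 0.04 over 5679 genes). Counting noise in sums of few cells lowers such a value, so it cannot decide whether the libraries are paired. The share of cells above the mitochondrial limit followed the number in both genotypes. The main fit had no replicate term. With the replicate block, the same 4 genes were called between genotypes, with 1 interaction against mature cells (Nrgn; Apoe was not called, 1.22, adjusted p = 0.243) and 6 against selected DP cells, among them Lef1os1 and Ift80, which were not called without the block.

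Lef1os1 kept its direction in all 17 alternatives and its call in 13. Chd3 kept its direction in all 17 and its call in 9. Values that changed sign were Tox4 (-0.16 to 0.46 over omitted libraries, lowest without control 2, and -0.045 with 1 CD8 UMI allowed), Cd24a (-0.71 to 0.20, highest without control 2), Ifi27l2a (0.25 with at most 5% mitochondrial UMIs, 0.12 after thinning), Apoe against mature cells (-2.53 without control 2 to 3.51), Hba-a1 (-0.44 without control 1 to 8.89) and Hbb-bs (-0.021 without control 1 to 6.69) against selected DP cells, and Hbb-bs against selected DP cells (-0.17 with the highest cell left out, -0.27 without haemoglobin-rich cells). The share of gated cells, cKO minus control, was 0.162 percentage points, 0.412 with at most 5% mitochondrial UMIs, -0.103 after thinning and -0.151 to 0.475 over omitted libraries. The 36 to 146 cells per library limit what can be called.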
